A study of Mus musculus with 8 samples.

Results

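The CDK inhibitor genes are the 7 mouse genes that encode dedicated protein inhibitors of cyclin-dependent kinases, the enzymes that drive the cell division cycle. They were taken by gene symbol from the platform annotation, and each of the 7 had a single row among the 22180 genes measured on all 8 arrays. The arrays hold cells sorted from dissociated mouse skin as positive for green fluorescent protein and negative for the surface receptor p75. P21_KO (4 arrays) came from mice of 21 days with B-raf and a further gene floxed (fl/fl), P21_WT (2 arrays) from mice of 21 days that were +/+ at both genes, and P4_WT (2 arrays) from +/+ pups of 4 days. All groups carried Tyr::Cre, in which a tyrosinase promoter drives the recombinase, and the Z/EG reporter, which turns on the fluorescent protein after recombination. The strain background was mixed (C57Bl/6; 129/Sv), with the floxed alleles brought in from 129/Sv. The labels call the 21-day cells melanocyte stem cells and the 4-day cells melanoblasts, the precursors of pigment cells. The study asks how these cell populations differ with age, and which genes differ with the knockout. B-raf encodes a kinase that passes growth factor signals to ERK.

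The inhibitors form separate families. The Cip/Kip family (Cdkn1a, Cdkn1b and Cdkn1c, encoding the proteins p21, p27 and p57) binds complexes of cyclins with their kinases. The INK4 family (Cdkn2a, Cdkn2b, Cdkn2c and Cdkn2d) binds the kinases CDK4 and CDK6 and keeps D-type cyclins from activating them. Both families hold the retinoblastoma protein in the state that blocks entry into S phase. Cdkn2a encodes p16 and, from another reading frame, the p53 activator p19ARF. In pigment cells Cdkn2a is known above all as a melanoma suppressor gene, and Cdkn1b is widely used as a mark of resting cells. The protein p21 and the age P21, postnatal day 21, are unrelated, and the gene symbol is used from here on.

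On the arrays, Cdkn1a and Cdkn1b were higher in P21_KO and in P21_WT than in P4_WT, and were the only members past the test. No knockout array of 4 days was analysed here, so age was compared within wild type alone. The 5 other members did not pass in any comparison. The upstream sequence of the 2 genes is shown because they moved together. RefSeq promoter windows on GRCm38.p6 were at hand for 6 of the 7 members, as 9 windows of 250 bases before an annotated start. Cdkn1a, on chromosome 17, has windows at 2 annotated starts that lie 2790 bases apart, and Cdkn1b, on chromosome 6, has 1. In the window of the upstream Cdkn1a start (chr17:29090729-29090978, plus strand) the capitals mark CATG and CATG with any 6 bases between them, the paired core letters of p53 response elements, and those 6 bases. In the window of the downstream start (chr17:29093519-29093768, plus strand) they mark GGGCGG, the GC box. In Cdkn1b (chr6:134920151-134920400, plus strand) they mark GGGCGG and CCAAT.
Cdkn1a upstream: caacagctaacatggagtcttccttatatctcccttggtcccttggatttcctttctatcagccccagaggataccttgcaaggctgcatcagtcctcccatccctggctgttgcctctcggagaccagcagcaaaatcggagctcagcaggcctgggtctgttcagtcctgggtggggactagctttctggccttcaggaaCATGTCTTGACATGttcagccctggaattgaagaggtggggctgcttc
Cdkn1a downstream: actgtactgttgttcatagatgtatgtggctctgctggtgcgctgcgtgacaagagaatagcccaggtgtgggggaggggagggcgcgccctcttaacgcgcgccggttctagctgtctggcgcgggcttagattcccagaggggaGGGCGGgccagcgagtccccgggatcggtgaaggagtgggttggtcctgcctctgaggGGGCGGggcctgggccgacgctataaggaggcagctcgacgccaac
Cdkn1b: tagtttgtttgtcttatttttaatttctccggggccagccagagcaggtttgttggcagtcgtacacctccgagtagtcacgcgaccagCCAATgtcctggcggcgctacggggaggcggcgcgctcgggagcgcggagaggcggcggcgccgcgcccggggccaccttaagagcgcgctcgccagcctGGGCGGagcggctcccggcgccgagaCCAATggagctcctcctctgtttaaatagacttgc

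TATAA, the TATA box core, was searched on the sense strand alone and the other motifs on both strands. The paired CATG began 48 bases before the upstream Cdkn1a start and was held by 0.49% of the 32851 windows of this length in the table (161 windows). None of the other 8 windows of the members held it. GGGCGG began 104 and 46 bases before the downstream Cdkn1a start and 61 bases before the Cdkn1b start, and 32.7% of all windows held it. CCAAT began 161 and 35 bases before the Cdkn1b start, and 220 bases before the Cdkn2d start, and was held by 33.8% of all windows. TATAA began 25 bases before the downstream Cdkn1a start and was held by 16.0% of all windows. Among the INK4 genes, GGGCGG was found 3 times in 1 window of Cdkn2c, 3 times in that of Cdkn2d and 2 times in 1 window of Cdkn2a. TGANTCA, the core of AP-1 sites, was in none of the 9 windows, against 6.75% of all windows. These matches describe the letters and were not tested for binding.

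Facts of the arrays that bear on every value are few. The 10 melanocyte lineage markers averaged a log2 value of 7.05 to 8.55 in P21_KO, 8.82 to 9.04 in P21_WT and 9.60 to 9.64 in P4_WT, and none of them read below the array median on all arrays of any group. P4_WT replicate 2 stood apart, with Xist, the RNA of the inactive X chromosome, at 8.94 against 1.95 to 2.77 on the other arrays. Eif2s3y, a gene of the Y chromosome, read 1.94 on this array and 6.92 to 7.87 on the others. By these genes the sex of the animals differs within P4_WT. P4_WT replicate 2 also had the highest means of the endothelial (6.11), immune (5.44) and mast cell (6.07) markers, against at most 3.83, 3.20 and 2.57 elsewhere. P21_KO replicate 4 stood apart on the second principal component (48.4, against -22.5 to 10.2). It also had the lowest mean of the melanocyte lineage markers (7.05) and the highest of the keratinocyte markers (8.74, against at most 8.29 elsewhere). Results on Cdkn1a and Cdkn1b are therefore also given without these arrays. One number, of unstated meaning, is written in the labels of P21_KO replicates 2, 3 and 4. Whether these 3 arrays come from unrelated animals is therefore unknown, and p-values measure the spread between arrays, which may in part be technical.

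**Figure D1:**
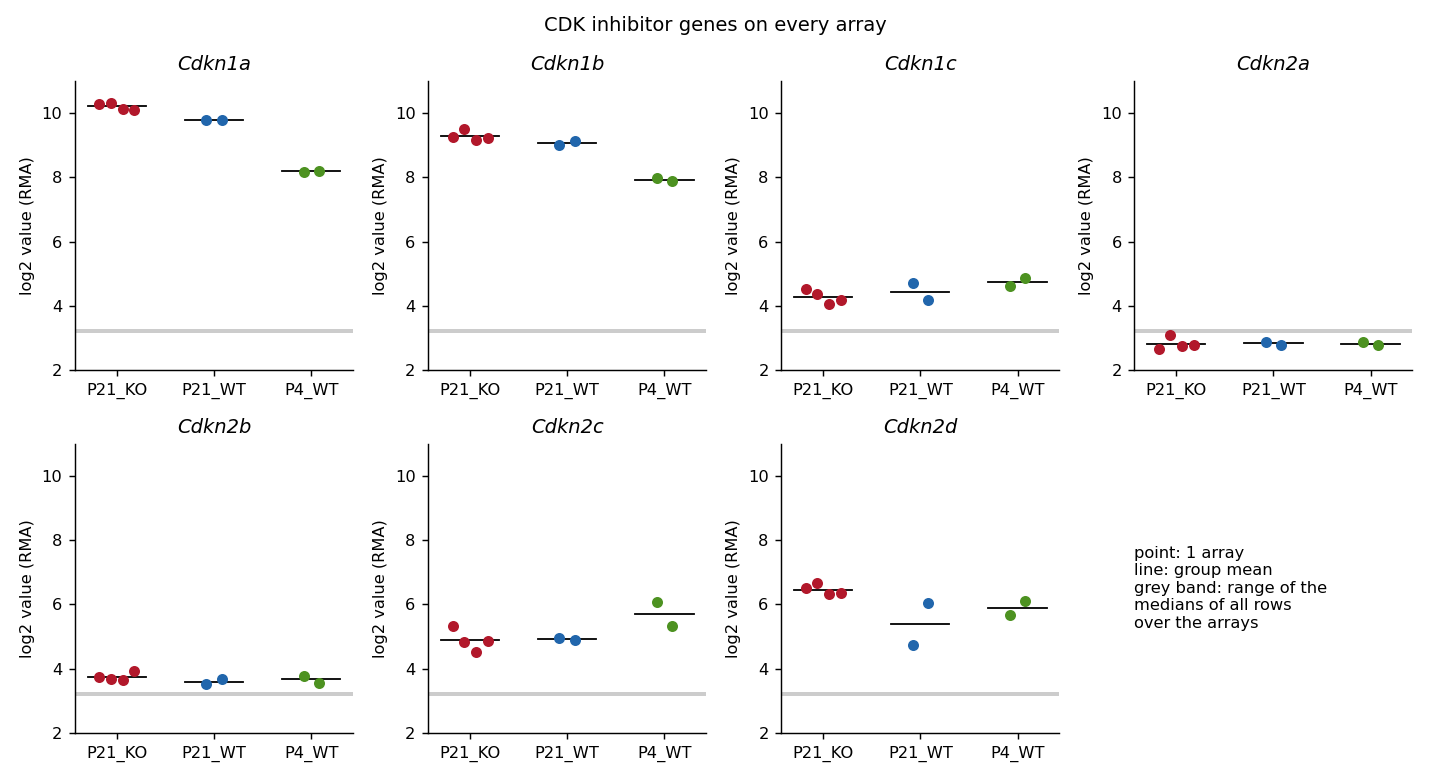
Deposited log2 value of each CDK inhibitor gene (y axis) on each array, by group (x axis), with the group mean as a line and the range of the arrays' medians as a grey band. Cdkn1a and Cdkn1b are highest in P21_KO and lowest in P4_WT without overlap, but P21_KO and P21_WT are only 0.03 apart for Cdkn1b. No member passed the test between those 2 groups. Cdkn2a lies under the band on all 8 arrays and Cdkn2d has 1 low array in P21_WT.

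Values are log2 intensities, so that 1 unit is a doubling, and the median over all rows of an array was 3.16 to 3.27. Levels of different genes are not compared, since probes differ in brightness. Cdkn1a (chr17:29090979-29100722, GRCm38.p6), which p53 and other signals induce to halt the cycle, read 10.30, 10.31, 10.13 and 10.11 on the P21_KO arrays, 9.78 and 9.79 on the P21_WT arrays, and 8.16 and 8.21 on the P4_WT arrays. Its 3 groups did not overlap, and P21_WT and P4_WT were 1.57 apart at their nearest arrays. The SD was 0.01 in P21_WT and 0.04 in P4_WT, each from only 2 arrays, and 0.11 in P21_KO. Cdkn1b, whose protein restrains cyclin E and CDK2 complexes in resting cells, read 9.26, 9.52, 9.15 and 9.23 in P21_KO, 9.01 and 9.12 in P21_WT, and 7.97 and 7.89 in P4_WT. Its groups kept the same order without overlap, but P21_KO and P21_WT were only 0.03 apart at their nearest arrays. This strict order of all 3 groups, P21_KO above P21_WT above P4_WT, was shown by 2 of the 7 members and by 378 of all 22180 genes (1.7%). The opposite strict order was shown by 0 members and by 2.12% of all genes.

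Cdkn1c (chr7:143458339-143461059, GRCm38.p6), an imprinted gene whose protein limits growth in development, read 4.54, 4.36, 4.06 and 4.17 in P21_KO, 4.70 and 4.17 in P21_WT, and 4.62 and 4.88 in P4_WT. Its P4_WT mean was the highest and its P21_KO mean the lowest, but the P21_WT arrays had an SD of 0.37 and overlapped both other groups. P21_KO lay below P4_WT without overlap, 0.08 apart at their nearest arrays.

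Among the INK4 genes, Cdkn2a (chr4:89274473-89294619) read 2.67, 3.09, 2.76 and 2.77 in P21_KO, 2.89 and 2.79 in P21_WT, and 2.89 and 2.77 in P4_WT. All 8 of these values lay below the median of their own array, so differences at this level are compressed and no order of the groups can be read. Cdkn2b, which lies beside Cdkn2a (chr4:89306289-89311032) and is induced by TGF-beta, read 3.74, 3.69, 3.65 and 3.92 in P21_KO, 3.51 and 3.69 in P21_WT, and 3.78 and 3.56 in P4_WT. These were just above the array medians, and the 3 groups overlapped.

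Cdkn2c (chr4:109660876-109666756), encoding p18, read 5.34, 4.83, 4.53 and 4.86 in P21_KO, 4.94 and 4.88 in P21_WT, and 6.06 and 5.33 in P4_WT. Like Cdkn1c it had its highest mean at 4 days, and P21_WT and P4_WT did not overlap, although the P4_WT arrays had an SD of 0.52. Cdkn2d (chr9:21288459-21291421), encoding p19, read 6.50, 6.68, 6.33 and 6.34 in P21_KO, 4.74 and 6.04 in P21_WT, and 5.68 and 6.09 in P4_WT. The 4 P21_KO values were close together and above all others, while the P21_WT arrays had an SD of 0.92, the widest of any member within a group.

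The age comparison sets P21_WT, labelled melanocyte stem cells, against P4_WT, labelled melanoblasts. Age and cell population therefore cannot be told apart in it. Cdkn1a rose 3.03-fold, a log2 change of 1.60 ± 0.16 (SE) with a 95% interval of 1.24 to 1.96 (limma adjusted p = 0.0033 over all genes, P21_WT 9.79 ± 0.01 and P4_WT 8.19 ± 0.04, SD, n = 2 each). Cdkn1b rose 2.19-fold, by 1.13 ± 0.18 (SE) with an interval of 0.73 to 1.53 (limma adjusted p = 0.0217, P21_WT 9.06 ± 0.08 and P4_WT 7.93 ± 0.05, SD, n = 2 each). These were 2 of the 7 members, where 0.757% of all genes rose past the threshold, 0.852% fell and 1.61% did either. Of the 22180 genes, 158 had a larger log2 change than Cdkn1a and 388 a larger one than Cdkn1b. In bulk samples such as these, more cells that transcribe a gene and more RNA per cell cannot be told apart.

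No other member passed by age. Cdkn2c was at -0.79 ± 0.31 (SE, interval -1.49 to -0.09, limma adjusted p = 0.318), Cdkn2d at -0.50 ± 0.38 (interval -1.36 to 0.37) and Cdkn1c at -0.32 ± 0.24 (interval -0.86 to 0.23). Cdkn2b was at -0.07 ± 0.17 and Cdkn2a at 0.01 ± 0.19, with limma adjusted p of 0.945 and 0.996. The intervals are not adjusted for the number of genes, and an adjusted p above the threshold does not show these members to be level. The median change over the 7 members was -0.07, against 0.0022 over all genes. Groups did not overlap for 2 members that were higher and 1 that was lower, where 21.4% and 22.1% of all genes did so (43.5% in either direction).

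**Figure D2:**
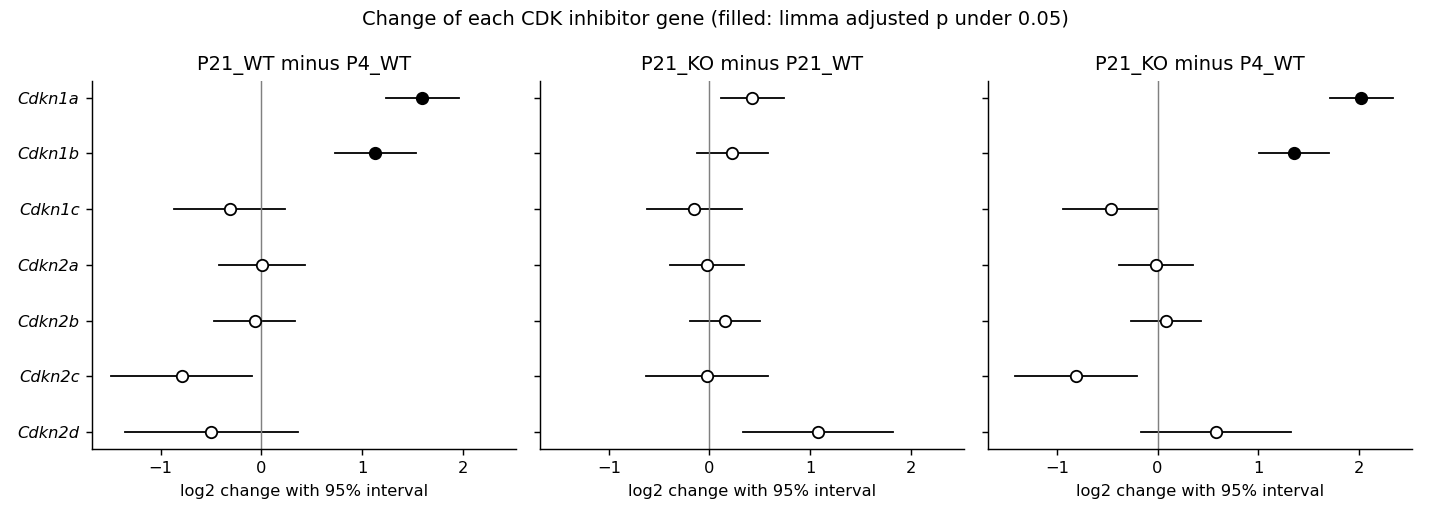
Log2 change of each member (x axis, with its 95% interval) in the 3 comparisons, with filled points for a limma adjusted p under 0.05. Cdkn1a and Cdkn1b are filled and at the right in both comparisons with P4_WT, at 1.60 and 1.13 for P21_WT and at 2.03 and 1.36 for P21_KO, and no point is filled for P21_KO minus P21_WT.

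The age calls differed in how far they rested on single arrays. Cdkn1a passed in all 8 fits that left out 1 array, with adjusted p up to 0.0327 in limma. Cdkn1b passed in 4 of them and missed whenever a wild-type array was left out, at 0.065 and 0.09 without P4_WT replicates 1 and 2 and at 0.096 and 0.115 without P21_WT replicates 1 and 2. Fits with 1 array left in a wild-type group assume that it varies like the other groups. The log2 change of Cdkn1b in those fits stayed between 1.07 and 1.19. With the wild-type arrays alone in the fit, limma's adjusted p was 0.0622 for Cdkn1a and 0.0958 for Cdkn1b. Without P4_WT replicate 2, the array with the high Xist and endothelial values, the log2 changes were 1.63 and 1.09.

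Set against P4_WT, the knockout arrays held the same pair. Cdkn1a was 4.08-fold higher in P21_KO (log2 2.03 ± 0.14 SE, limma adjusted p = 0.000226), and Cdkn1b 2.56-fold higher (log2 1.36 ± 0.15 SE, limma adjusted p = 0.0019). With 1 array left out the log2 changes stayed at 1.99 to 2.06 for Cdkn1a and 1.28 to 1.41 for Cdkn1b. Fits that left out a P21_WT array could not move them. This comparison changes age and genotype together and shares arrays with each of the others. It called 2 of the 7 members as higher, where 3.05% of all genes were higher, 4.68% lower and 7.73% either. Groups did not overlap for 3 members that were higher and 1 that was lower, where 14.2% and 15.5% of all genes did so (29.6% in either direction). Cdkn2c was at -0.81 ± 0.26 (limma adjusted p = 0.117), Cdkn1c at -0.46 ± 0.21 (0.254), Cdkn2d at 0.58 ± 0.33 (0.383), Cdkn2b at 0.08 ± 0.15 and Cdkn2a at -0.01 ± 0.16 (0.98). Without P21_KO replicate 4 the changes of Cdkn1a and Cdkn1b were 2.06 and 1.38.

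The genotype comparison sets P21_KO against P21_WT. No member passed limma's test, as was true of every gene tested (0%), and 6.52% of all genes had an unadjusted p under 0.05. Among the members that was the case for Cdkn2d (log2 1.08 ± 0.33 SE, interval 0.33 to 1.82, limma adjusted p = 0.609) and Cdkn1a (0.43 ± 0.14, interval 0.11 to 0.74, limma adjusted p = 0.633). Cdkn1b was at 0.23 ± 0.15 (interval -0.12 to 0.58, limma adjusted p = 0.881). Groups did not overlap for these 3 members, each higher in P21_KO, where 7.75% of all genes were higher without overlap, 7.64% lower and 15.4% either.

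The difference of Cdkn2d moved with single P21_WT arrays. It was 0.43 without P21_WT replicate 1, the array at 4.74, and 1.73 without P21_WT replicate 2. Fits that left out a P4_WT array could not move the genotype differences, as P4_WT is not part of them. Over the 8 fits that left out 1 array, the difference of Cdkn1a moved only between 0.39 and 0.46, and that of Cdkn1b between 0.15 and 0.29. In each of these fits none of the 3 passed. The remaining members were at 0.15 ± 0.15 (Cdkn2b, interval -0.20 to 0.50), -0.15 ± 0.21 (Cdkn1c, interval -0.62 to 0.33), -0.02 ± 0.26 (Cdkn2c, interval -0.63 to 0.59) and -0.02 ± 0.16 (Cdkn2a, interval -0.39 to 0.35). For these 4 the intervals reach at most 0.59 above and 0.63 below no change on the log2 scale. The age and genotype comparisons use the P21_WT arrays with opposite sign, so a low or high P21_WT array moves both.

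**Figure D3:**
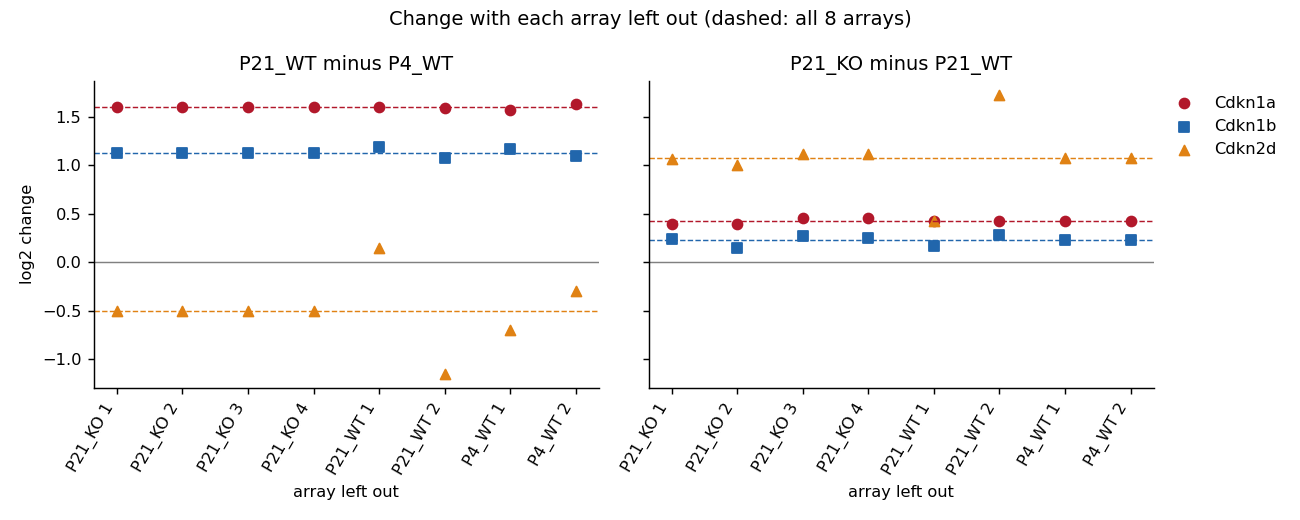
Log2 change of Cdkn1a, Cdkn1b and Cdkn2d (y axis) in 8 fits that each left out the array named on the x axis, with the value from all 8 arrays as a dashed line. Cdkn1a and Cdkn1b stay near their lines, while Cdkn2d lies at 0.15 and -1.15 by age and at 0.43 and 1.73 by genotype when P21_WT replicate 1 or 2 is left out.

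Cdkn1b lies on chromosome 6 at 134920401 to 134925525 (GRCm38.p6), 95.2 Mb from Braf on the same chromosome. That distance does not show linkage, and the place of the further floxed gene is not reported here. The floxed alleles came from 129/Sv, and the strain origin of the DNA at Cdkn1b was not measured. Genotype and strain origin therefore cannot be told apart for Cdkn1b. Braf itself differed by -0.34 ± 0.36 (SE, limma adjusted p = 0.944), with a P21_KO mean of 6.26 and a P21_WT mean of 6.59. Whether its probes lie in the floxed part is not known here. The melanocyte lineage markers were lower in P21_KO in 9 of 10 cases, with a median of -1.01, and 0 of them passed. Of all 22180 genes, 10783 were lower. The part of these markers in the members' values was not tested.

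**Figure D4:**
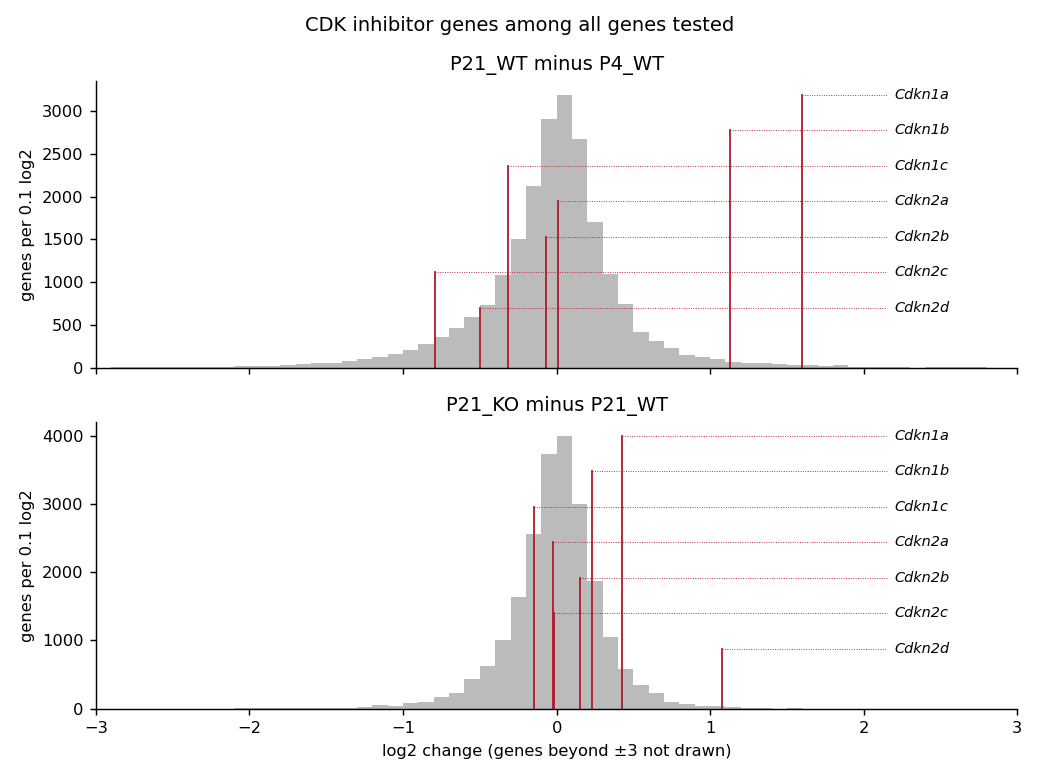
Number of genes per 0.1 log2 unit of change (y axis) among the 22180 genes, those beyond the axis not drawn, for P21_WT minus P4_WT and P21_KO minus P21_WT (x axis, log2 change), with a red line at each member. Cdkn1a and Cdkn1b stand in the right tail by age, and Cdkn2d stands farthest right by genotype, where 77 genes had a larger change. The other lines lie nearer the middle, with Cdkn2c above 5.84% of genes by age and Cdkn1a above 94.1% by genotype.

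Among the kinases and cyclins that the inhibitors act on, Cdk1, Ccnb2 and Ccna2 fell by age. All 4 measured kinases were lower in P21_WT than in P4_WT, with a median of -1.08. Of all 22180 genes, 11143 were higher and 11037 lower in that comparison, and 1.61% passed the test. Cdk1, which drives mitosis, read 3.73 and 3.60 in P21_WT, against 6.36 and 6.45 in P4_WT, and fell by 2.74 ± 0.19 (SE) on the log2 scale (limma adjusted p = 0.000876). Cdk4, a partner of D cyclins and the main INK4 target, was at -1.48 ± 0.32 (limma adjusted p = 0.073), Cdk6 at -0.68 and Cdk2, the main Cip/Kip target, at -0.65. The 2 measured cyclins of S, G2 and M fell, Ccnb2 by 3.42 ± 0.30 and Ccna2 by 2.28 ± 0.25 (limma adjusted p = 0.002 and 0.0046). Of the 4 measured G1 cyclins none passed, with Ccnd2 at -1.89, Ccnd1 at -1.40 and Ccne1 at -0.36, while Ccnd3, which read 7.19 and 7.20 in P21_WT against 6.16 and 6.60 in P4_WT, was at 0.82. In P21_KO against P4_WT, Cdk1 (-3.48), Cdk4 (-1.94), Cdk2 (-1.73), Ccnd2 (-2.89) and Ccnd1 (-1.85) fell past the threshold, as did Ccnb2 and Ccna2. Cdk1 read below the array medians on all 4 P21_KO arrays, so the size of that fall is not well measured.

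Downstream of the kinases, 8 of 10 pocket protein and E2F genes were lower in P21_WT than in P4_WT, with a median of -0.38. E2f8, a repressor E2F of S phase, was the 1 that passed, at 3.24 and 2.99 in P21_WT against 5.23 and 5.10 in P4_WT (log2 change -2.05 ± 0.17, limma adjusted p = 0.00135). Its P21_WT mean lay below the array medians, so the size of its change is not well measured. Rb1, the retinoblastoma gene, was at 0.91 ± 0.31 (limma adjusted p = 0.243) and its relative Rbl1 at -0.70. In P21_KO against P4_WT the list had 3 falls, E2f8 (-2.32), Rbl1 (-1.09) and E2f3 (-1.66). E2f8 and E2f3 read below the array medians on all 4 P21_KO arrays and Rbl1 on 3 of them, so the sizes of these falls are not well measured.

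The protein level of Cdkn1a and Cdkn1b products is set largely by ubiquitin ligases. Of the 12 measured genes of that turnover list, 11 were lower in P21_WT than in P4_WT, with a median of -0.45. Over all 22180 genes, 11037 were lower. Cks1b, the cofactor with which the ligase subunit Skp2 recognises the Cdkn1b protein, fell, at 4.27 and 4.63 in P21_WT against 5.69 and 5.58 in P4_WT (log2 change -1.18 ± 0.22, limma adjusted p = 0.0447). In P21_KO against P4_WT it fell by 1.13, and Dtl, which targets the Cdkn1a protein in S phase, fell by 0.97, with 3 of its 4 P21_KO values below the array medians. By genotype 0 of the 12 passed, with 5 higher and 7 lower and a median of -0.04. Protein was not measured here.

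Of 26 measured regulators that act on the transcription of these genes, 13 were higher and 13 lower in P21_WT than in P4_WT, and 0 passed limma's test. Klf6, Ezh2 and Klf4 had the smallest p of the list (limma adjusted p of 0.149, 0.149 and 0.153). Klf4 and Klf6, which are known to raise Cdkn1a, were at 1.04 and 0.90. Ezh2, the Polycomb methyltransferase that silences the Cdkn2a locus, was at -0.94. Among the others that were lower, Suz12 was at -0.96, Ets2 at -0.73 and Mitf at -0.30. In P21_KO against P4_WT, Klf4 (1.34), Klf6 (1.33) and the Polycomb gene Cbx7 (1.28) rose, and Smad3 (-1.18) and Ets1 (-0.76) fell. Smad3, a TGF-beta effector, read below the array medians in P21_KO. By genotype 14 were higher and 12 lower, 0 of them past the test.

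Among 16 measured p53 target genes other than Cdkn1a, 12 were higher in P21_WT than in P4_WT, with a median of 0.18, and 0 passed limma's test. Over all 22180 genes, 11143 were higher. Sesn1, a stress-induced regulator of mTOR signalling, read 6.15 and 6.44 in P21_WT, against 4.90 and 4.51 in P4_WT (log2 change 1.59 ± 0.36, limma adjusted p = 0.0804). It had the smallest p of the list. Of the 4 that were lower, Zmat3 was at -0.74 and Trp53inp1 at -0.70. In P21_KO against P4_WT, Sesn1 (2.14) and Btg2 (1.61), an antiproliferative gene, rose and Zmat3 (-1.04) fell. By genotype the list split into 7 higher and 9 lower with a median of -0.01. The gene for p53 itself had no row with a single symbol here.

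**Figure D5:**
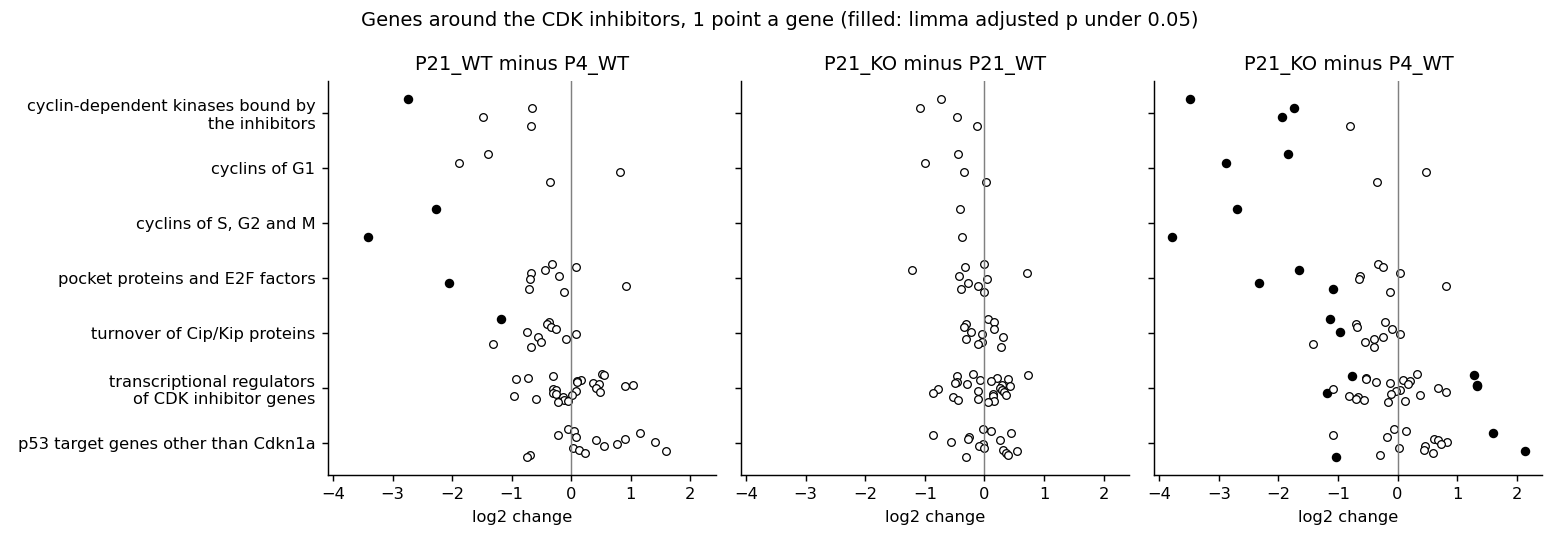
Log2 change (x axis) of each measured gene in 7 lists around the inhibitors (y axis), with filled points for a limma adjusted p under 0.05, in the 3 comparisons. Kinases and cyclins lie left of 0 by age except Ccnd3 at 0.82, regulators lie on both sides, and no point is filled for P21_KO minus P21_WT.

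By genotype, 4 of 4 kinases, 3 of 4 G1 cyclins and 2 of 2 later cyclins were lower in P21_KO than in P21_WT, and 0 of these 10 passed. Their medians were -0.60, -0.40 and -0.39, against 0.0071 over all genes. Cdk2 read 7.65, 7.49, 6.57 and 7.07 in P21_KO, against 8.42 and 8.13 in P21_WT, without overlap (log2 change -1.08 ± 0.29, limma adjusted p = 0.571). Cdk1 was at -0.73 and below the array medians in P21_KO.

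Some other gene groups were higher in the P21 groups than in P4_WT, as Cdkn1a and Cdkn1b were, and some were lower. Over all genes, 1.61% passed the test by age, 0.757% as higher and 0.852% as lower. Immediate early and dissociation genes averaged 9.15 to 9.33 in P21_KO, 8.76 to 9.12 in P21_WT and 7.15 to 7.60 in P4_WT, with 8 of 11 past the test by age and 0 below the array medians throughout a group. Schwann cell and glial markers averaged 7.45 to 7.74, 7.44 to 7.50 and 6.38 to 6.65 in the same order of groups, with 4 of 7 past the test by age and 1 below the array medians throughout each group. Keratinocyte markers averaged 7.55 to 8.74 in P21_KO, 8.27 to 8.29 in P21_WT and 7.08 to 7.89 in P4_WT, with 0 of 7 past the test by age. Hair shaft and inner root sheath markers averaged 2.79 to 2.96, 2.88 to 2.91 and 4.99 to 7.14, with 3 of 6 past the test by age and 5 of 6 below the array medians on all arrays of either P21 group. Markers of cycling cells averaged 3.66 to 3.98, 4.10 to 4.11 and 6.01 to 6.47, with 6 of 10 past the test by age. Fibroblast markers overlapped between the groups, at 6.37 to 7.0, 6.65 to 6.93 and 6.74 to 7.15. The part of these groups in the values of Cdkn1a and Cdkn1b was not tested.

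The genes most alike in pattern were found by Pearson's r over the 8 arrays, among 3147 named genes with an SD of at least 0.5. The arrays share 3 groups and so r mostly measures the group steps. Hspa12a (r = 0.999), Fmnl2 (0.994) and Abca2 (0.994) were nearest to Cdkn1a. Hspa12a read 9.11, 8.96, 8.82 and 8.85 in P21_KO, 8.28 and 8.31 in P21_WT, and 5.96 and 6.16 in P4_WT. Drp2 (0.991), Fam83f (0.989) and Cdkn1a itself (0.989) were nearest to Cdkn1b. Drp2 read 9.52, 9.72, 9.47 and 9.50 in P21_KO, 9.03 and 9.17 in P21_WT, and 6.36 and 5.98 in P4_WT, the same order of groups. Cdkn2c was nearest to Map3k20 (0.986), Lyrm2 (0.983) and Glyctk (0.98), and Cdkn1c to Fkbp4 (0.961), Golt1b (0.961) and Ddx39a (0.957). For Cdkn2d, St3gal3 (0.952), Cemip2 (0.919) and Ubtd2 (0.908) came first. St3gal3 read 3.90 and 5.43 in P21_WT, against 5.37 and 5.30 in P4_WT, and was low in P21_WT replicate 1 as Cdkn2d was.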

How the data were processed

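Each array was hybridised with biotin-labelled cDNA amplified from total RNA of sorted cells, per the labels' protocols. The authors deposited log2 values, and the submitters' processing notes name RMA and Affymetrix Expression Console, with no version. RMA corrects background, equalises the arrays' distributions and summarises probes, and it compresses changes near the floor. Spread from the amplification step cannot be told apart from spread between animals.

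Of 41345 rows, 23521 had 1 gene symbol in the platform annotation, and 1814 with several and 16010 with none were left out. The row with the highest mean was kept for each of 22180 genes. All 8 arrays entered 1 linear model with a term for each group, in limma 3.58.1 (R 4.3.3, lmFit and eBayes, 5 residual degrees of freedom), with two-sided p-values adjusted by Benjamini-Hochberg over all genes and calls at an adjusted p under 0.05. The script was tested on simulated data. The number of arrays limits the precision.

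Members, lists and the rule for named genes (all members, up to 4 called genes of each list with the smallest p, and the 3 genes most alike in pattern) were chosen with earlier results of these data known. List genes that were not called, Ets1 and Braf were named outside that rule, after their values were seen. Same-numbered replicates did not deviate together (r of -0.037 to 0.006), so numbers were not used as pairs. Alternatives covered the arrays fitted, prior, weights, normalization, dim genes, rows, blocks, threshold and single arrays. The further floxed gene is not reported here.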

Additional observations from a re-analysis of the deposited data

How the results depend on the processing

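Cdkn1a kept its age call in 19 of 21 alternative fits and Cdkn1b in 15 of 21, with log2 changes of 1.57 to 1.71 and 1.07 to 1.25. Not all of these fits are separate checks. Only median centring, quantile and cyclic loess normalization, and leaving out a wild-type array, moved the log2 changes at all. Every other fit kept 1.60 and 1.13 and changed at most the adjusted p or the threshold. The number of members called by age was 2, but 0 with the wild-type arrays alone and 0 with the replicate block, and 1 to 2 when 1 array was left out. Under that replicate block limma's adjusted p was 0.056 for Cdkn1a and 0.104 for Cdkn1b, and the genes called were 45 by age and 463 in P21_KO against P4_WT, in place of 357 and 1715. The replicate numbers do not pair the arrays, so this is a check on the block alone. With the wild-type arrays alone 49 genes were called by age, and at an adjusted p under 0.10 there were 674. Leaving out 1 array gave 119 to 338 genes by age, 0 to 15 by genotype and 921 to 1529 in P21_KO against P4_WT. By genotype 0 of 146 values of members were called.

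The 5 other members were called in 0 of their alternatives, and 27 of 438 values changed sign, all among them. By age Cdkn2a was at -0.0225 after quantile and -0.0271 after cyclic loess normalization, and -0.0512 to 0.0674 with 1 array left out. Cdkn2b was at -0.179 to 0.0437 and Cdkn2d at -1.15 to 0.152 in such fits. By genotype Cdkn2a was at 7.025e-05 and Cdkn2c at 0.000785 after median centring, Cdkn2c at 0.0134 after quantile and 0.00514 after cyclic loess normalization, and Cdkn1c, Cdkn2a and Cdkn2c at 0.0178, 0.0378 and 0.176 with the replicate block. With 1 array left out they were at -0.411 to 0.114, -0.111 to 0.0302 and -0.170 to 0.101. In P21_KO against P4_WT Cdkn2a was at 0.0024545 after median centring, 0.046 with the block and -0.103 to 0.0466 with 1 array left out, and Cdkn2b at -0.0272 to 0.195. The cause of these changes was not tested. The dim filter removed Cdkn2a, whose values lie below the array medians.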

Other observations

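Cdkn2b was nearest in pattern to Tlcd1 (r = 0.883 over 8 arrays), which was highest in P21_KO replicate 4 at 8.73, the array in which Cdkn2b read 3.92. No likeness was read for Cdkn2a, whose values lie below the array medians. Between members, r over the 8 arrays was 0.99 for Cdkn1a with Cdkn1b and -0.75 for Cdkn1a with Cdkn2c, values that the 3 groups share and that carry no test.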
